A study of Mus musculus with 21 samples.

Results

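Rab GTPases are small proteins that mark the membranes of the cell and steer vesicles between them. Their transcripts were followed in dendritic cells (DCs) and lymphocytes sorted from mouse spleen. A gene counted as a member if a probe set of the array carried its symbol alone and the symbol was Rab with a number and at most a letter and a digit, so that regulators and effectors with other names stayed out. This gave 59 Rab genes, measured by 132 probe sets, out of 18193 genes with a symbol of their own on the array. Each gene was represented by the probe set with the highest mean signal. Genes entered the tests with signals above 156.3, the table median, on 3 or more of the 21 arrays, and 49 of the 59 Rab genes and 13262 genes in all met this. The 10 Rab genes that did not were Rab26, Rab3b, Rab3c, Rab9b, Rab40b and Rab42, which passed the median on 0 arrays, Rab4a, Rab25 and Rab44, which passed it on 1 array, and Rab34, which passed it on 2 arrays. Just inside the limit were Rab17, Rab20 and Rab39b, each above the median on 3 arrays, and Rab7b and Rab33a, above it on 7 arrays.

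The 21 arrays fell into 7 groups of 3. The 33D1 antibody, which binds the CD8-negative DCs of the spleen, and the DEC205 antibody, which binds the CD8-positive DCs, each gave a group from wild-type C57BL/6 mice and a group from C57BL/6 mice injected with Flt3L melanoma and killed on days 10 to 12. Flt3L is the growth factor that expands DCs, and in these mice the factor and the tumour came together, so their effects cannot be told apart. Purified B cells and CD4 or CD8 T cells came from wild-type C57BL/6 mice. An array held RNA pooled from 40 to 80 mice for wild-type DCs, 20 mice for DCs of Flt3L mice and 5 to 8 mice for lymphocytes. The labels do not say whether the pools of a group were separate sorts, so the p-values measure only the spread between these samples, which may be technical. The series set out to find the molecule that 33D1 recognises and to compare the subsets in genes of antigen presentation.

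A Rab protein is switched on when an exchange factor (GEF) loads it with GTP and switched off when a GTPase-activating protein (GAP) makes it hydrolyse the GTP. In the GTP form it sits on its own membrane, whether endoplasmic reticulum, Golgi, early, recycling or late endosome, or secretory granule, and recruits effectors that move, tether and fuse vesicles. DCs depend on this traffic to bring engulfed antigen to the compartments where peptides meet MHC molecules, and CD8-positive DCs are known for cross-presentation, the loading of engulfed antigen on MHC class I.

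The RefSeq promoter table (build GRCm38.p6) held 48 of the 59 Rab genes, in 60 windows of 300 bases that run from 250 bases before to 50 bases after a transcription start. Shown here are the windows of Rab32, Rab39, Rab43 and Rab11a, all higher in DEC205 DCs, and of Rab24, higher in 33D1 DCs. Each is printed 5′ to 3′ on the gene's own strand, which is the minus strand for all 5. Capitals mark a GGAAGT core of Ets factors or a CACGTG E-box, on either strand. The windows are chr10:10558158-10558457 for Rab32, chr9:53706183-53706482 for Rab39, chr6:87812115-87812414 for Rab43 (the first of 4 starts listed), chr9:64737707-64738006 for Rab11a and chr13:55321931-55322230 for Rab24.
Rab32: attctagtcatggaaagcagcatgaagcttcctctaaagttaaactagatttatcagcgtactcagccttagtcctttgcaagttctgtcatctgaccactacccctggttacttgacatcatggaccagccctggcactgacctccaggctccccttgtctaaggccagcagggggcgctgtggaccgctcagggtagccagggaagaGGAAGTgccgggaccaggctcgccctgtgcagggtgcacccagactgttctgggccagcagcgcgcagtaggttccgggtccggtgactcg
Rab39: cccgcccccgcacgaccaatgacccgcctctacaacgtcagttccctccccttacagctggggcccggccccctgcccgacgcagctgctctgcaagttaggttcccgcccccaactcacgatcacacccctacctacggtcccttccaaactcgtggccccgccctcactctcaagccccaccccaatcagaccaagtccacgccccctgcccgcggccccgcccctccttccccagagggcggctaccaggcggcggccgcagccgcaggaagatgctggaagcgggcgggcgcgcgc
Rab43: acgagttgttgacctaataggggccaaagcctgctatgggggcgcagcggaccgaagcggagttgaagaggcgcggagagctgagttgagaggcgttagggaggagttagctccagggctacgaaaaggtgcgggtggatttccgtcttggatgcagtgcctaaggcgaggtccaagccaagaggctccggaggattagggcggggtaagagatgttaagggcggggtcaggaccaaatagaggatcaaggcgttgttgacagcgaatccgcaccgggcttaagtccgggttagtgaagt
Rab11a: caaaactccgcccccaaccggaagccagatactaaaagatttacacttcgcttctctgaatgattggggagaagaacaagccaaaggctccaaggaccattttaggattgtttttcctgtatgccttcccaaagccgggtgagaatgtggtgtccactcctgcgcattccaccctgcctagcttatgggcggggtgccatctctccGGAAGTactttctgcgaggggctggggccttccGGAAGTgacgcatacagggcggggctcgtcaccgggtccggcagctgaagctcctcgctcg
Rab24: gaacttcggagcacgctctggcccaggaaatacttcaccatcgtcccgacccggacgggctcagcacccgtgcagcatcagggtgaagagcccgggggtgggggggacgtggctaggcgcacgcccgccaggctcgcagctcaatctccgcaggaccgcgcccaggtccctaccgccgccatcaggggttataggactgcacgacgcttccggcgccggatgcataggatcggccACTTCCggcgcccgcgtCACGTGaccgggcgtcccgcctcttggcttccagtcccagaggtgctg
GGAAGT, read on both strands, began at position -41 from the start in Rab32, at -44 and -11 in Rab11a and, on the opposite strand, at -15 in Rab24. It was in 23.8% of the 32851 promoters of the table and in 16 of the 60 Rab windows (26.7%). CACGTG, which reads the same on both strands, began at position 3 in Rab24. It was in 7.15% of all promoters and in 6 Rab windows (10%). An AP-1 site (TGANTCA), a pair of GAAA half-sites spaced by 2 bases, and GGAA followed after 2 bases by GAAA were searched as well and matched none of the 5 windows. Their shares of all promoters were 7.81%, 3.44% and 2.72%. The Rab39 and Rab43 windows held none of the motifs searched. GC content ranged from 56.3% in Rab11a to 70.7% in Rab39, with a median of 52.7% over all promoters. Such matches describe letters and were not linked to binding.

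The sorted cells carried the markers of their labels, which was checked because the lymphocyte samples are described as DCs in a field of their labels. Summed signals of 4 B cell markers were at least 82898.0 in B cells and at most 2632.6 in DCs, and those of 4 T cell markers were at least 53694.2 in T cells and at most 261.7 in DCs. The 4 measured markers of CD8-positive DCs summed to at least 49250.5 in DEC205 DCs and, on 5 of the 6 arrays of 33D1 DCs, to at most 986.7. The sixth, 33D1 replicate 3 of Flt3L mice, reached 3869.3. Conversely, the 5 markers of CD8-negative DCs, which summed to at least 35292.1 in 33D1 DCs, reached 3798.9 on DEC205 replicate 3 of wild-type mice against 2035.3 and 1280.6 on its fellows. These 2 arrays therefore held some transcripts of the other subset, and counts of Rab genes are given with and without them. Markers of other cells moved with the wild-type subsets too. The 5 neutrophil markers summed to 3140.3 on DEC205 replicate 3 against 843.7 and 821.7 on its fellows, and to between 1661.5 and 3028.0 in 33D1 DCs. The 33D1 sum was led by Mmp9 (at least 1028.5, against at most 258.6 in DEC205 DCs). S100a8, S100a9, Ngp and Camp instead had lower means in 33D1 than in DEC205 DCs, and read highest on DEC205 replicate 3. The 6 macrophage markers summed to between 4615.5 and 5088.7 in 33D1 DCs and between 1788.4 and 3423.2 in DEC205 DCs, a sum led by Adgre1 in 33D1 DCs (at least 3977.9, against at most 729.1). The markers C1qa, C1qb, Hmox1 and Vcam1 instead read above every 33D1 array on at least 2 DEC205 arrays. C1qa read 204.5, 21.9 and 205.5 in DEC205 DCs and at most 21.9 in 33D1 DCs, Hmox1 at least 577.4 against at most 109.1, and Vcam1 at least 605.4 against at most 281.1. The part of such cells in the Rab differences was not tested. In pooled cells, fewer cells of a type and less RNA per cell cannot be told apart.

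Rab transcripts were first compared between the DC subsets. In wild-type mice 22 of the 49 tested Rab genes differed between 33D1 and DEC205 DCs, 5 higher and 17 lower in 33D1 DCs (44.9%, limma with an adjusted p under 0.05, which is what called means throughout). Among all genes tested 23.1% were called, 11.3% higher and 11.8% lower. In Flt3L mice 20 Rab genes were called, 6 higher and 14 lower (40.8%), against 23.6% of all genes, 11.7% higher and 11.8% lower. The lower calls thus outnumbered the higher ones among Rab genes, whereas the directions were nearly equal in number among all genes. The median log2 difference of the tested Rab genes was -0.02 in wild-type mice and -0.04 in Flt3L mice, against 0.04 for all genes in both. The median size was 0.43 in wild-type mice against 0.27 for all genes. In Flt3L mice it was 0.29 against 0.28, so the typical size there was that of all genes. Without the 2 arrays with transcripts of the other subset, 17 Rab genes were called in wild-type mice (5 higher, 12 lower) and 18 in Flt3L mice (5 higher, 13 lower). Calls among all 13262 genes fell as well. In wild-type mice they went from 1503 higher and 1565 lower to 1261 and 1307, and in Flt3L mice from 1557 and 1567 to 1316 and 1268.

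These comparisons share no arrays, and 19 genes were called in the same direction in both, 5 higher and 14 lower. They made up 86.4% of the wild-type calls and 95% of the Flt3L calls, and 0 Rab genes were called in opposite directions. The matching shares over all genes were not computed, so this overlap is not set apart from that of other genes. Both comparisons also use the same pooled spread. Rab1a, Rab1b and Rab5a were called in wild-type mice alone and Rab40c in Flt3L mice alone, but the difference between the subset contrasts was called for 0 of the 49 Rab genes (limma, 3 at an unadjusted p under 0.05, smallest adjusted p = 0.985), against 0.106% of all genes.

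**Figure D1:**
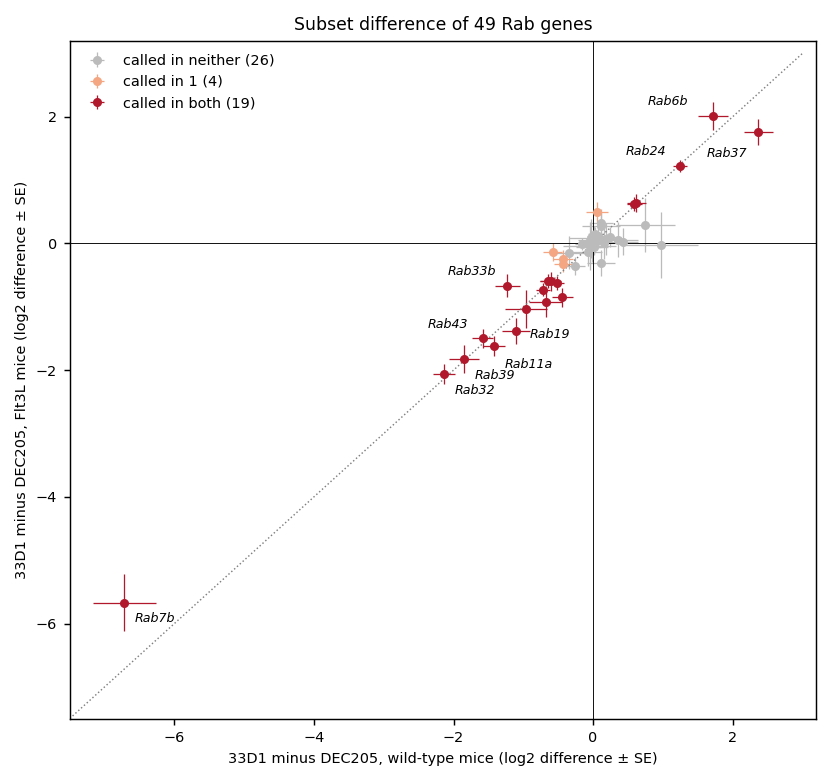
Subset difference of the 49 tested Rab genes in wild-type mice (x axis) and in Flt3L mice (y axis), each as 33D1 minus DEC205 on the log2(signal + 48.6) scale with standard errors. The dotted line marks equal differences, and colours give the number of comparisons in which a gene was called. Rab7b lies alone at -6.72 and -5.67, and Rab6b, Rab37 and Rab24 stand at the other end.

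Among Rabs of late endosomes and autophagy, 4 of 6 tested members were called in both kinds of mice. This share of 66.7% compares with 23.1% of all genes in wild-type mice and 23.6% in Flt3L mice. Rab7b, which acts between late endosomes and the trans-Golgi network, had signals of 13.3, 68.8 and 78.3 in wild-type 33D1 DCs and of 10120.7, 10529.8 and 10019.2 in DEC205 DCs. In Flt3L mice they were 74.6, 75 and 527.1 against 10195.7, 10968.5 and 10298.2. Every DEC205 array was thus far above every 33D1 array, and the 33D1 arrays lay below the table median except the one with transcripts of the other subset. Rab7b passed the filter on 7 arrays, those of DEC205 DCs and that 33D1 array. A difference of DEC205 DCs from 33D1 DCs and lymphocytes is therefore built into its being tested. The wild-type subset call was also kept with no filter on low signals. The log2 difference was -6.72 ± 0.45 in wild-type mice (SE from the pooled spread, 3 arrays against 3, limma adjusted p = 1.69e-10) and -5.67 ± 0.45 in Flt3L mice (adjusted p = 2.12e-09). Without the 2 arrays named above it was -6.74 and -6.42. Both other probe sets of Rab7b were lower in wild-type 33D1 DCs too, by -5.01 and -3.21.

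Rab7, the Rab that drives fusion of late endosomes with lysosomes, was also lower in 33D1 DCs, by a much smaller amount, with -0.65 ± 0.11 in wild-type mice and -0.59 ± 0.11 in Flt3L mice. Its signals were 5959.3, 6011.6 and 6139.8 in wild-type 33D1 DCs and 10026.3, 9610.9 and 8935.6 in DEC205 DCs. Rab39, found on late endosomes and phagosomes, had 263.9, 223.8 and 272.2 in wild-type 33D1 DCs against 1363.9, 1011.8 and 807.6 in DEC205 DCs. In Flt3L mice it had 320.3, 275.9 and 297.9 against 1463.6, 1031 and 1089.9. The groups did not overlap, and the differences were -1.85 ± 0.22 (adjusted p = 8.48e-07) and -1.83 ± 0.22 (adjusted p = 1.02e-06).

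Rab24, a Rab of the autophagic pathway, went the other way. It had 2547.5, 2816.1 and 3181.8 in wild-type 33D1 DCs and 1244.8, 1188.7 and 1076.3 in DEC205 DCs, a difference of 1.25 ± 0.10 (adjusted p = 2.86e-09). In Flt3L mice the signals were 2653.3, 2696.1 and 2401.2 against 1026.1, 1121.8 and 1098.5, and the difference was 1.22 ± 0.10. DEC205 DCs were thus the group low in Rab24, since B and T cells lay between 1743.1 and 2363.8. Rab9, which returns receptors from late endosomes to the Golgi, was not called (-0.06 ± 0.13 and 0.03 ± 0.13), nor was Rab39b (-0.03 ± 0.31 and 0.08 ± 0.31).

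**Figure D2:**
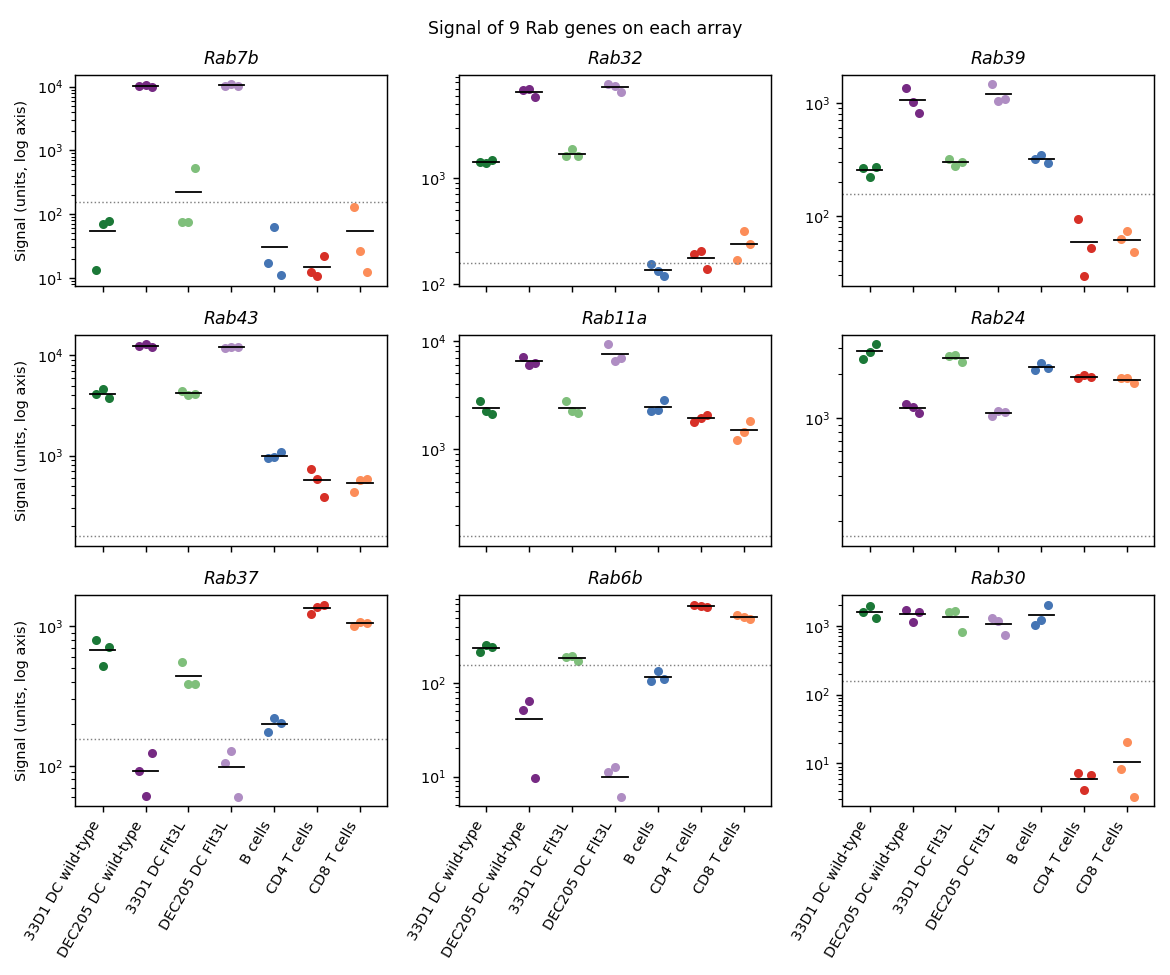
Signals of Rab genes on every array, on a log axis, with the 7 groups side by side. Points are arrays, black bars are group means, and the dotted line is the table median of 156.3. Rab7b is at 10019.2 or more on the 6 DEC205 arrays and at most 527.1 elsewhere, and Rab30 is at most 20.2 on the 6 T cell arrays.

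Of the 3 tested Rabs of lysosome-related organelles, Rab32 was called and its close relative Rab38 was not. With 1 call the share was 33.3%, against 23.1% of all genes in wild-type mice and 23.6% in Flt3L mice. Rab32, which delivers cargo to melanosomes and related organelles, had 1419.8, 1394 and 1485.1 in wild-type 33D1 DCs against 6750.7, 6908.3 and 5876.4 in DEC205 DCs (-2.14 ± 0.16, adjusted p = 5.94e-10). In Flt3L mice it had 1606.4, 1865.7 and 1608.3 against 7719, 7433.2 and 6498.9 (-2.06 ± 0.16, adjusted p = 1.02e-09). Both subsets lay above every B and T cell array, of which the highest reached 312.4. Rab38 differed between the subsets by 0.16 ± 0.26 and 0.01 ± 0.26, and Rab29, which acts at the trans-Golgi network and lysosomes, by 0.04 ± 0.10 and 0.09 ± 0.10.

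Most called Rabs of the endoplasmic reticulum and Golgi were lower in 33D1 DCs: 7 of 13 tested in wild-type mice and 5 in Flt3L mice, with 2 higher in each. The shares called were 69.2% and 53.8%, against 23.1% and 23.6% of all genes. Rab43, a Golgi Rab also described in cross-presentation by CD8-positive DCs, had 4084.3, 4573.5 and 3769.5 in wild-type 33D1 DCs against 12378.8, 12911.2 and 12115.4 in DEC205 DCs (-1.58 ± 0.15, adjusted p = 3.75e-08). In Flt3L mice the values were 4458, 4046.3 and 4160.2 against 11898.5, 12037 and 12188 (-1.50 ± 0.15, adjusted p = 8.07e-08). The spread within each group was small beside the gap, and both other probe sets of Rab43 were lower in wild-type 33D1 DCs as well (-1.37 and -1.16). Rab33b, which links Golgi and autophagy, differed by -1.23 ± 0.18 and -0.67 ± 0.18, and Rab19, a Golgi Rab, by -1.11 ± 0.20 and -1.38 ± 0.20. The call of Rab33b in Flt3L mice was lost without DEC205 replicate 1 (adjusted p = 0.0577).

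Paralogues in this class parted. Rab6a, the widely expressed Rab of retrograde Golgi traffic, was lower in 33D1 DCs (-0.61 ± 0.15 in wild-type mice, -0.60 ± 0.15 in Flt3L mice). Rab6b, its relative best known from neurons, was higher, with 217.5, 254.7 and 245 against 51.4, 64.2 and 9.7 in wild-type mice (1.72 ± 0.22, adjusted p = 2.23e-06). In Flt3L mice Rab6b had 193.1, 195.1 and 172.3 against 11.2, 12.6 and 6.1 (2.01 ± 0.22, adjusted p = 2.72e-07), so that DEC205 DCs stayed below the table median on all 6 arrays of this probe set. Rab6b passed the filter on 12 arrays, those of 33D1 DCs and T cells alone. A difference of these groups from DEC205 DCs and B cells is therefore built into its being tested. Its subset calls were also kept with no filter on low signals. Another probe set of Rab6b averaged 193.2 in DEC205 DCs and 141.5 in 33D1 DCs of Flt3L mice (-0.47, not called), and the mean over all probe sets gave 1.24 in wild-type mice and 0.66 in Flt3L mice (adjusted p = 0.0321).

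Rab2b and Rab2a, which act between endoplasmic reticulum and Golgi, formed a like pattern. Rab2b had 445.2, 581.2 and 486.7 in wild-type 33D1 DCs against 334.7, 271.6 and 323.2 in DEC205 DCs (0.62 ± 0.14, adjusted p = 0.00236). In Flt3L mice it had 468.3, 504 and 431.7 against 303.7, 278.1 and 268.9 (0.64 ± 0.14). Rab2a was lower, by -0.52 ± 0.11 and -0.62 ± 0.11, but 0 of its other tested probe sets were called, and the mean over its probe sets gave -0.16 in wild-type mice (adjusted p = 0.384) and -0.13 in Flt3L mice (adjusted p = 0.518). Likewise the mean over the probe sets of Rab2b missed the threshold in wild-type mice (0.32, adjusted p = 0.0823).

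Rab1a and Rab1b, which start traffic from the endoplasmic reticulum, were lower in wild-type 33D1 DCs by -0.43 ± 0.14 and -0.43 ± 0.13. In Flt3L mice they differed by -0.25 ± 0.14 and -0.32 ± 0.13 and were not called. The wild-type call of Rab1a was lost without 33D1 replicate 1 or 3 or DEC205 replicate 1 or 3 (adjusted p up to 0.146), and that of Rab1b without 33D1 replicate 1 or 2 or DEC205 replicate 1 or 2 (adjusted p up to 0.0783). Quantile normalization of the arrays ended both calls too (limma adjusted p = 0.0783 for Rab1a and 0.056 for Rab1b). The mean over the probe sets of Rab1a was far from a call (adjusted p = 0.595), and none of its other tested probe sets was called. Rab18, Rab30, Rab33a and Rab36 were not called between the subsets.

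Of the 8 tested early endosomal Rabs, 3 were called in wild-type mice (37.5%, against 23.1% of all genes) and 2 in Flt3L mice (25%, against 23.6%). Rab21, which acts in integrin uptake, was higher in 33D1 DCs, with 5052.9, 4940.9 and 5013 against 3277.1, 3126 and 3535.5 in wild-type mice (0.59 ± 0.11) and 0.62 ± 0.11 in Flt3L mice. Rab31, which links the trans-Golgi network to endosomes, was lower by -0.68 ± 0.24 and -0.92 ± 0.24. Of the 3 Rab5 genes, which control fusion of early endosomes, Rab5a was lower in wild-type 33D1 DCs (-0.58 ± 0.14, adjusted p = 0.00268), whereas Rab5b (0.11 ± 0.20) and Rab5c (0.43 ± 0.22) were not called. The wild-type call of Rab31 was lost on leaving out any of the 6 arrays (adjusted p between 0.0549 and 0.141).

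Among recycling and exocytic Rabs, all 4 calls of the 11 tested genes were lower in 33D1 DCs in both kinds of mice. The share called was 36.4%, against 23.1% of all genes in wild-type mice and 23.6% in Flt3L mice. Rab11a, the Rab of the recycling endosome, had 2771.6, 2259.8 and 2110.4 in wild-type 33D1 DCs against 7099.7, 5985.5 and 6230.6 in DEC205 DCs (-1.42 ± 0.16, adjusted p = 3.51e-07). In Flt3L mice the signals were 2785.2, 2232.5 and 2169.9 against 9267.2, 6474.1 and 6862.2 (-1.62 ± 0.16, adjusted p = 4.91e-08). Its paralogue Rab11b differed by 0.01 ± 0.11 and -0.06 ± 0.11, so the subsets parted in Rab11a and were not seen to part in Rab11b. The others called were Rab10, an exocytic Rab (-0.72 ± 0.10 and -0.73 ± 0.10), Rab13 (-0.96 ± 0.30 and -1.04 ± 0.30) and Rab35, a Rab of fast recycling (-0.44 ± 0.15 and -0.85 ± 0.15).

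The calls of Rab13 and Rab35 depended on which arrays were used. That of Rab13 was lost without 33D1 replicate 1 or 2 or DEC205 replicate 2 or 3 in wild-type mice (adjusted p up to 0.0917) and without 33D1 replicate 3 or DEC205 replicate 1 in Flt3L mice (up to 0.0673). That of Rab35 in wild-type mice was lost without any array but 33D1 replicate 1 (up to 0.136).

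Of the Rabs of regulated secretion, 1 of 5 tested was called in both kinds of mice. That was 20%, below the 23.1% of all genes in wild-type mice and 23.6% in Flt3L mice. Rab37, which acts in the release of secretory granules, had 802.8, 523.7 and 707.1 in wild-type 33D1 DCs against 91.3, 61 and 123.5 in DEC205 DCs (2.37 ± 0.21, adjusted p = 8.85e-09). In Flt3L mice it had 552.3, 388.3 and 385.9 against 104.6, 127.7 and 60.3 (1.76 ± 0.21, adjusted p = 7.74e-07). DEC205 DCs lay below the table median on all 6 arrays, and no 33D1 array did. Rab27a, which releases lytic granules of T cells, was not called (0.12 ± 0.17 and 0.33 ± 0.17). Outside these classes, Rab40c, part of a ubiquitin ligase, was called in Flt3L mice (0.49 ± 0.16, adjusted p = 0.0327), a call lost without DEC205 replicate 1 or any of the 3 33D1 arrays (adjusted p up to 0.144).

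The second question was whether Rab transcripts differ between DCs of Flt3L mice and of wild-type mice. In 33D1 DCs 0 of 49 Rab genes were called (limma, 4 at an unadjusted p under 0.05, smallest adjusted p = 0.255), against 1.01% of all genes. In DEC205 DCs 0 were called as well (4 at an unadjusted p under 0.05, smallest adjusted p = 0.145), against 2.12% of all genes. Rab differences ran from -0.92 (Rab20) to 1.08 (Rab7b) in 33D1 DCs and from -0.57 (Rab6b) to 0.47 (Rab35) in DEC205 DCs. The Rab7b value of 1.08 ± 0.45 came with replicate 3 of the 33D1 DCs of Flt3L mice, the array at 527.1, on which markers of CD8-positive DCs summed to 3869.3. Without that array the Rab7b difference was 0.34 (adjusted p = 0.895). Rab6b was lower in DEC205 DCs of Flt3L mice by -0.86 (adjusted p = 0.0379) without both arrays that hold transcripts of the other subset, and by -0.86 (adjusted p = 0.0289) without DEC205 replicate 3 of wild-type mice alone, where Rab6b read 9.7 against 51.4 and 64.2. All these Rab6b signals lay below the table median, so the size of that difference is not reliable. With the mean over all probe sets Rab38 was called lower in DEC205 DCs of Flt3L mice (-0.98, adjusted p = 0.02) and gave -0.78 in 33D1 DCs (adjusted p = 0.104). Its second probe set averaged 1037.3 in wild-type and 317.9 in Flt3L DEC205 DCs, and 791.9 and 368.3 in 33D1 DCs. These 2 contrasts share no arrays with each other, but each shares its arrays with the subset contrasts, and all use the same pooled spread.

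**Figure D3:**
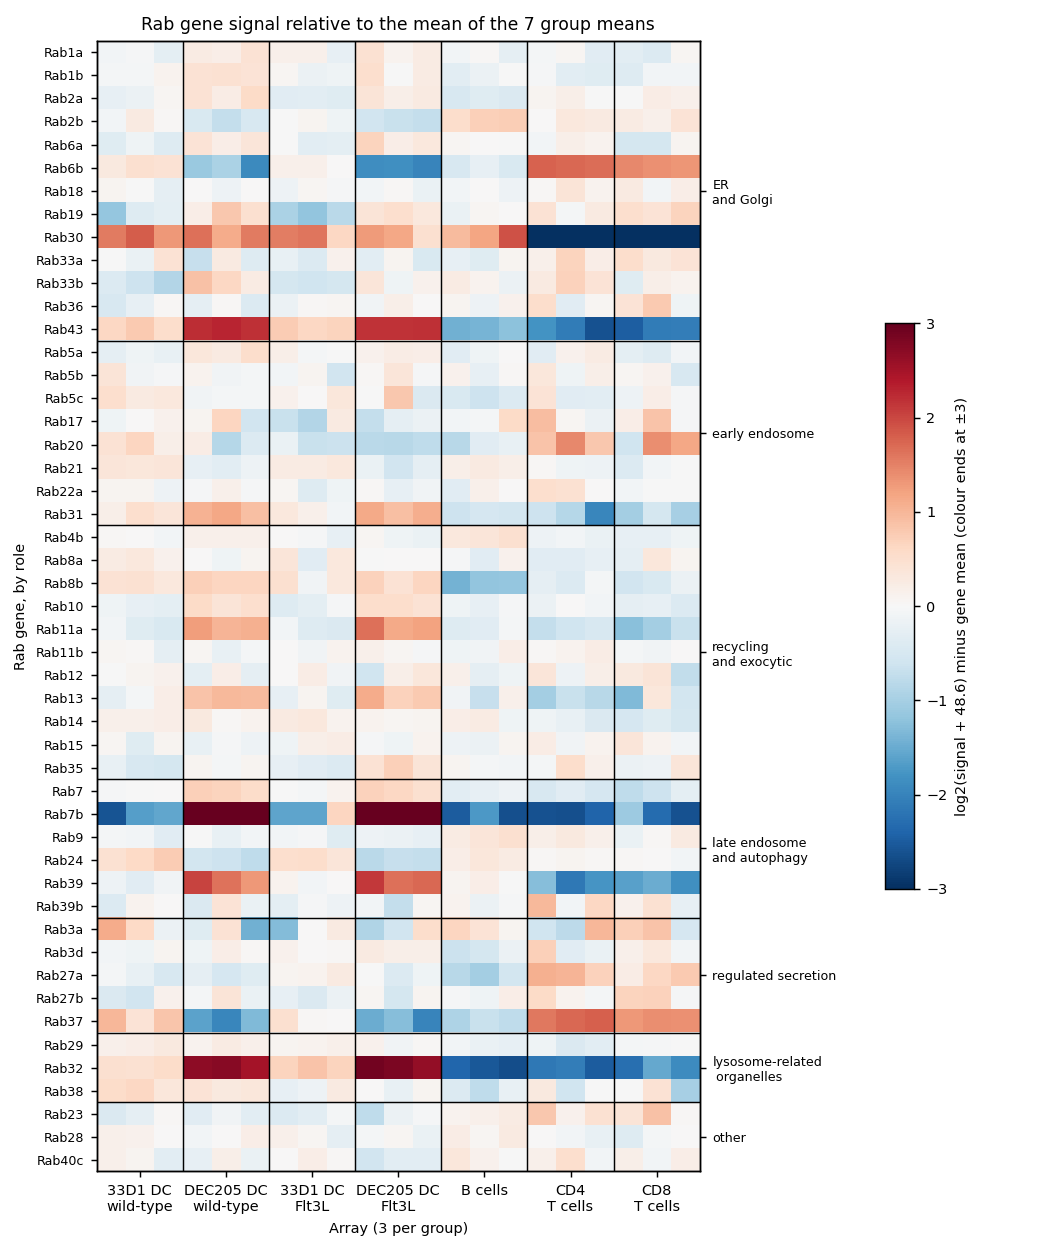
Log2(signal + 48.6) of the tested Rab genes on the 21 arrays, shown relative to the mean of the 7 group means of each gene, with genes in order of role and the colour ending at 3 on either side. Columns are arrays grouped by cell type. Columns of the same DC subset from wild-type and Flt3L mice look alike, and Rab7b, Rab32, Rab43 and Rab30 carry the widest range.

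The series also looked for molecules of a single subset. Here a gene was counted as restricted when it was called higher than the other wild-type subset and than each lymphocyte group, with all 4 log2 differences reaching 1. By this rule 5 Rab genes of 49 were restricted to DEC205 DCs (2.68% of all genes tested) and 0 to 33D1 DCs (1.87% of all genes). They were Rab7b (smallest of the 4 differences 6.72), Rab32 (2.14), Rab43 (1.58), Rab39 (1.56) and Rab11a (1.37). The rule compares with the other groups and does not require these to lack the gene: Rab32 was also higher in wild-type 33D1 DCs than in B cells (3.02 ± 0.16) and Rab43 than in CD4 T cells (2.81 ± 0.15), whereas Rab7b, Rab11a and Rab39 were not called in 33D1 DCs against B cells (0.36 ± 0.45, -0.05 ± 0.16 and -0.29 ± 0.22). Rab37 and Rab6b, the genes with the largest differences toward 33D1 DCs, did not count as restricted because both were lower there than in CD4 T cells (-0.96 ± 0.21 and -1.33 ± 0.22) and CD8 T cells (-0.62 ± 0.21 and -0.97 ± 0.22). Among all genes, wild-type 33D1 DCs differed from B cells in 34.1%, from CD4 T cells in 38.8% and from CD8 T cells in 40.6%, and DEC205 DCs from B cells in 39.1%.

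DCs were then set against lymphocytes, with the mean of the 2 wild-type DC groups on one side. Against B cells 20 Rab genes were called, 16 higher and 4 lower in DCs (40.8%), with 40% of all genes called, 18.8% higher and 21.1% lower. The share was that of the background, but the direction leaned to DCs. Against T cells, taken as the mean of CD4 and CD8 T cells, 30 were called, 17 higher and 13 lower (61.2%), with 52.7% of all genes called, 22.7% higher and 30% lower. With each array centred on its median the split against T cells was 20 higher and 8 lower. All genes shifted the same way, from 3004 higher and 3982 lower to 3263 higher and 3462 lower. The contrasts share the DC arrays with each other and with the subset contrast. Without DEC205 replicate 3 of wild-type mice the counts were 15 higher and 4 lower against B cells, and 16 and 9 against T cells. Among all genes they were then 2387 higher and 2672 lower against B cells, and 2892 and 3682 against T cells.

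Rab32 and Rab43 were the clearest DC genes. Rab32 lay between 1394 and 6908.3 on the 6 DC arrays (median 3680.75), at 154.5, 131.4 and 118.3 in B cells and between 137.5 and 312.4 in T cells (median 196.6). No lymphocyte array came near a DC array, and the differences were 4.09 ± 0.13 against B cells (adjusted p = 3.01e-16) and 3.63 ± 0.11 against T cells (adjusted p = 1.9e-17). Rab43 lay between 3769.5 and 12911.2 in DCs (median 8344.45), at 938.3, 960.7 and 1094.6 in B cells and between 387.4 and 727 in T cells (median 577.25), with differences of 2.79 ± 0.13 and 3.63 ± 0.11. Rab7b was called higher in DCs than in B cells (3.72 ± 0.39) and T cells (3.70 ± 0.32), yet its DC arrays overlapped with the lymphocytes, because these values average the high DEC205 DCs with 33D1 DCs that were not called against B, CD4 T or CD8 T cells.

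Several Rabs were higher in DCs with smaller gaps. Rab8b, an exocytic Rab, lay between 6992.8 and 9220.7 in DCs (median 8269.4), at 2092, 2462.5 and 2474.3 in B cells and between 3777.7 and 5383.9 in T cells (median 4439.2). The groups did not overlap, with 1.78 ± 0.12 against B cells and 0.86 ± 0.10 against T cells, while Rab8a was called against neither (0.19 ± 0.14 and 0.23 ± 0.11). Rab31 was higher by 1.25 ± 0.21 and 1.69 ± 0.17, Rab38 by 0.89 ± 0.23 and 0.58 ± 0.19, and Rab29 by 0.37 ± 0.09 and 0.36 ± 0.07, which put all 3 tested Rabs of lysosome-related organelles above B and T cells. For Rab38 the arrays of DCs and T cells overlapped, and its other probe set gave 2.23 and 2.02. Rab7 (0.56 ± 0.09 and 0.82 ± 0.08), Rab11a (0.66 ± 0.14 and 1.19 ± 0.11) and Rab39 (0.64 ± 0.19 and 2.42 ± 0.15) were also higher against both. For Rab11a and Rab39 the difference from B cells came from DEC205 DCs, since 33D1 DCs were not called against B cells (-0.05 ± 0.16 and -0.29 ± 0.22).

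Rab30, a Golgi Rab, set T cells apart from every other group. Its T cell signals lay between 3.3 and 20.2 (median 6.95), those of B cells were 1020.9, 1210.5 and 2031.2, and those of wild-type DCs lay between 1152.2 and 1910.5 (median 1579.6). All 6 T cell arrays were below the table median and all other arrays at 724.3 or more. The differences were 4.79 ± 0.19 for DCs minus T cells (adjusted p = 1.82e-15) and 4.64 ± 0.23 for B cells minus T cells (adjusted p = 3.07e-13), and 0.15 ± 0.23 for DCs minus B cells. The second probe set of Rab30 was lower in T cells as well, with 2.03 and 1.85. Since T cell signals were near the bottom of the range, these folds depend on the offset of 48.6.

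Genes lower in DCs than in T cells included Rab6b, Rab37 and Rab2b, 3 of the 5 Rabs that were higher in 33D1 DCs in both kinds of mice. The others, Rab24 (-0.03 ± 0.07) and Rab21 (0.18 ± 0.08), were not called against T cells. Rab6b lay between 9.7 and 254.7 in DCs (median 140.85), at 106.7, 133.6 and 110.2 in B cells and between 493.2 and 696.7 in T cells (median 594.55), with -2.01 ± 0.15 against T cells (adjusted p = 2.06e-10). Rab37 lay between 61 and 802.8 in DCs (median 323.6), at 175.7, 221.3 and 203.1 in B cells and between 1008.4 and 1432.9 in T cells (median 1158.4), with -1.98 ± 0.15. In wild-type mice the order for both genes was T cells, 33D1 DCs, B cells and DEC205 DCs. The 33D1 DCs stood above B cells by 0.80 ± 0.22 for Rab6b and 1.53 ± 0.21 for Rab37, and DEC205 DCs below them by -0.92 ± 0.22 and -0.84 ± 0.21. Neither gene differed between the mean of the DC subsets and B cells by a called amount (-0.06 ± 0.19 and 0.34 ± 0.18).

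Rab27a had 282.8, 242.1 and 354.5 in B cells, lay between 366.9 and 512.5 in DCs (median 419.55) and between 638.2 and 1186.3 in T cells (median 927.05). The order of the groups was T cells, DCs and B cells, with -1.06 ± 0.12 for DCs minus T cells and 0.47 ± 0.15 for DCs minus B cells, the latter lost without B cell replicate 1 or 2 (adjusted p up to 0.112). Its relative Rab27b was lower in DCs than in T cells by -0.45 ± 0.18 (adjusted p = 0.0445), a call that 7 of the 12 arrays could each end. Rab20, linked to phagosome maturation, was dim everywhere, between 5.9 and 104.8 in DCs, at 6.5, 29.3 and 35.8 in B cells and between 16.5 and 219.1 in T cells. It passed the filter through 3 T cell arrays alone (219.1, 210.5 and 172.1), so a difference toward T cells is built into its being tested. Its DC and T cell arrays overlapped, with -0.81 ± 0.30 for DCs minus T cells, a call that 5 of the 12 arrays could each end (adjusted p between 0.057 and 0.0915). Over all settings it ran from -1.13 to -0.40.

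Few Rabs were lower in DCs than in B cells. Rab2b had 708.8, 813.2 and 824.4 in B cells and lay between 271.6 and 581.2 in DCs, a difference of -0.90 ± 0.12 (adjusted p = 3.4e-06). Rab9 had 1204.9, 1306.9 and 1418.3 in B cells and between 784.4 and 1003.9 in DCs (-0.50 ± 0.11), and Rab4b, a Rab of fast recycling, had 2855.2, 2976.1 and 3196.1 and between 2178.9 and 2567.3 (-0.31 ± 0.08). In these 3 genes no DC array reached a B cell array. Rab24 was the fourth (-0.28 ± 0.09), with overlapping arrays, and its call was lost without B cell replicate 2 (adjusted p = 0.086).

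**Figure D4:**
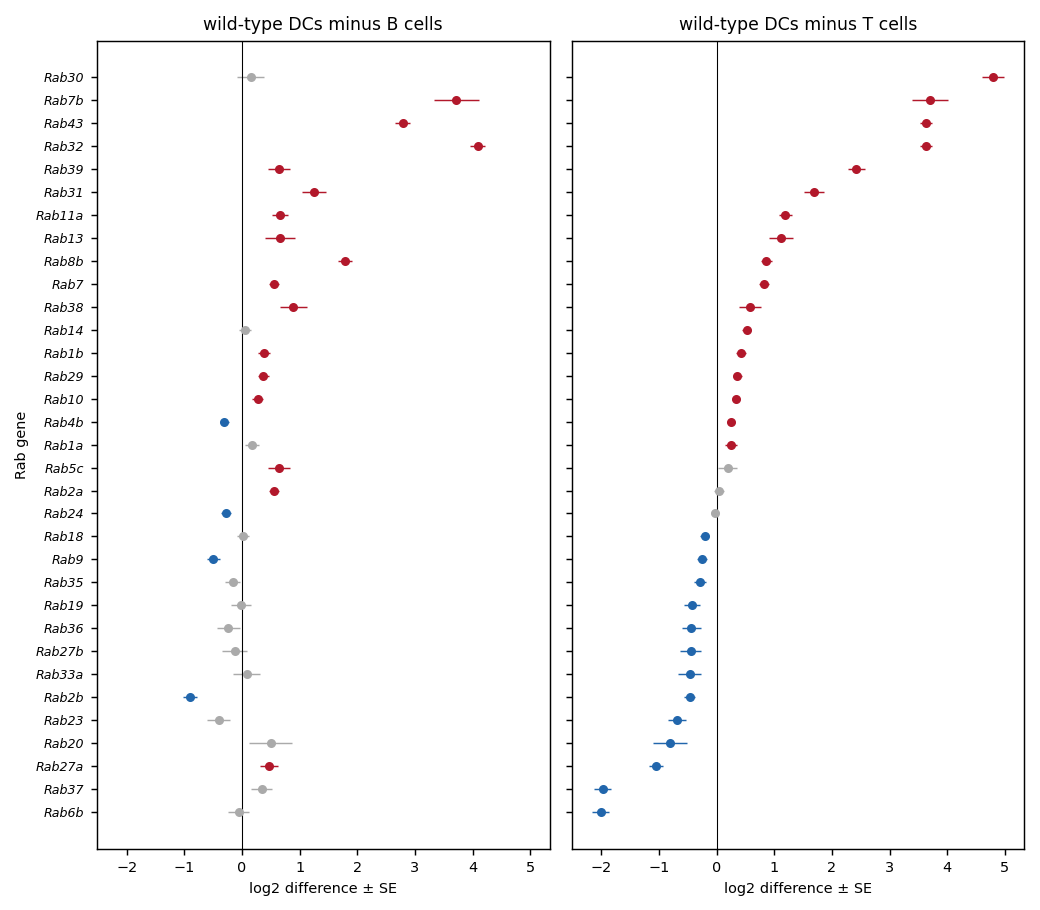
Log2 differences (± SE) of the Rab genes called in at least 1 of the contrasts of wild-type DCs with B cells (left) and with T cells (right). Red points were called higher, blue points called lower and grey points not called in that contrast. Rab30 stands at 4.79 against T cells and at 0.15 against B cells, and Rab32 at 3.63 and 4.09.

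B cells and T cells differed in 18 Rab genes, 10 higher and 8 lower in B cells (36.7%), against 27% of all genes, 13.1% higher and 13.9% lower. Besides Rab30, the largest differences toward B cells were those of Rab39, Rab43 and Rab4b. Rab39 had 319.1, 347 and 291.9 in B cells and between 29.6 and 94.7 in T cells (1.78 ± 0.19), a T cell range below the table median throughout. Rab43 differed by 0.83 ± 0.13 and Rab4b by 0.56 ± 0.08. Toward T cells stood Rab37 (-2.32 ± 0.18), Rab6b (-1.95 ± 0.19), Rab27a (-1.53 ± 0.15), Rab20 (-1.31 ± 0.37), Rab8b (-0.93 ± 0.12) and Rab2a (-0.53 ± 0.09). For Rab20 the call was lost without B cell replicate 1 (adjusted p = 0.0621), and both other probe sets of Rab43 were not called (0.23 and -0.07). Nor were the other probe sets of Rab2a, whose mean over probe sets gave -0.22 (adjusted p = 0.12).

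CD8 and CD4 T cells differed in 0 of 49 Rab genes (limma, 9 at an unadjusted p under 0.05, smallest adjusted p = 0.213), against 3.26% of all genes. Rab differences ran from -0.48 (Rab33b) to 0.55 (Rab7b). Without CD8 replicate 3, Rab6a was called lower in CD8 T cells (-0.59, adjusted p = 0.0227).

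In 10 of the 49 tested Rab genes none of the 9 contrasts gave a call: Rab3a, Rab5b, Rab8a, Rab11b, Rab12, Rab15, Rab17, Rab22a, Rab28 and Rab39b. Rab11b lay between 2802.5 and 3957.6 on the 21 arrays by the probe set used, but both its other probe sets were called lower in DCs, by -0.63 and -0.58 against B cells and by -0.80 and -0.45 against T cells. The mean over its probe sets was called as well (-0.42, adjusted p = 0.000653, and -0.45, adjusted p = 2.31e-05). Rab3a, by contrast, spread from 448.4 to 2864.6 within the groups as well as between them, with standard errors of 0.52, so its values bound little. The remaining 39 were called at least once. Where a called gene had other tested probe sets, 0 of them were called in the opposite direction in any of the 9 contrasts. At least 1 other was called in the same direction for 11 of 14 such genes between the wild-type subsets, 11 of 14 between the Flt3L subsets, 10 of 11 for DCs minus B cells, 15 of 16 for DCs minus T cells and 8 of 13 for B minus T cells. By the suffix of their names, the probe sets chosen for Rab38, Rab3a, Rab27b and Rab14 are of kinds that can also bind other transcripts.

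Genes that act on Rabs were read from a list of 137 GEFs, GAPs, effectors and proteins that prenylate or recycle Rabs, of which 124 were tested. Between the wild-type subsets 21 were higher and 14 lower in 33D1 DCs (28.2%, against 23.1% of all genes), and in Flt3L mice 24 and 16 (32.3%, against 23.6%). The same 4 genes had the smallest adjusted p in both. Rin2, an exchange factor of Rab5, had 856.2, 949.1 and 740.2 in wild-type 33D1 DCs against 18.9, 56 and 55.6 in DEC205 DCs (3.31 ± 0.25 in wild-type mice, 2.81 ± 0.25 in Flt3L mice). Dennd2d, a DENN-domain protein, was lower, with 251.4, 235.4 and 236.6 against 889, 1046.6 and 944.4 (-1.80 ± 0.14 in both). Tbc1d16, a GAP of the TBC family, was higher by 2.11 ± 0.21 and 2.07 ± 0.21, and Dennd3, an exchange factor of Rab12, by 2.04 ± 0.21 and 2.25 ± 0.21. GEFs and GAPs thus appeared in both directions, 10 GEFs higher and 5 lower and 5 GAPs higher and 3 lower in wild-type mice. These were 37.5% of the 40 tested GEFs and 27.6% of the 29 tested GAPs, against 23.1% of all genes. Hps4, a subunit of the exchange factor of Rab32 and Rab38 and named here after its values were seen, was lower in 33D1 DCs (-0.93 ± 0.14 and -0.90 ± 0.14). Hps1, the other subunit, went the opposite way, with 0.29 ± 0.12 in wild-type mice (not called, adjusted p = 0.083) and 0.48 ± 0.12 in Flt3L mice (adjusted p = 0.00381).

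For Flt3L mice against wild-type mice, 0 of the 124 were called in 33D1 DCs (12 at an unadjusted p under 0.05) and 1 in DEC205 DCs, Uso1, a Golgi tether (-0.54 ± 0.10, adjusted p = 0.00623). Among all genes 1.01% and 2.12% were called. DCs differed from B cells in 59 of these genes, 30 higher and 29 lower (47.6%, against 40% of all genes), and from T cells in 77, 45 higher and 32 lower (62.1%, against 52.7%). TBC-family genes led both. Tbc1d4, a GAP known from glucose transporter traffic, had 17.1, 6.3 and 16.1 in B cells and between 4855.3 and 15554.3 in DCs (7.12 ± 0.15), and was higher in DCs than in T cells by 3.70 ± 0.13. Tbc1d9 was higher by 5.17 ± 0.20 and 6.25 ± 0.16, and Tbc1d8 by 6.11 ± 0.24 and 6.28 ± 0.20. Rab11fip4, an effector of Rab11, was higher in DCs than in B cells by 3.05 ± 0.11, and Dennd5a, which binds Rab6, was higher than in T cells by 2.89 ± 0.08. B cells differed from T cells in 53 (34 higher, 19 lower; 42.7%, against 27%), and CD8 from CD4 T cells in 5 (2 higher, 3 lower; 4.03%, against 3.26%), among them Tbc1d4, lower in CD8 T cells by -2.32 ± 0.18.

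On the chromosomes some of these Rabs lie near others of the family. In the gene order of GRCm38.p6, 3 protein-coding genes separate Rab7b from Rab29 and 6 separate Rab43 from Rab7. The neighbours did not share the size of the subset difference: Rab7b stood at -6.72 and Rab29 at 0.04, while Rab43 (-1.58) and Rab7 (-0.65) were both lower in wild-type 33D1 DCs.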

How the data were processed

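RNA of 21 pools was hybridised to Affymetrix mouse arrays. The authors deposited 1 signal intensity per probe set, and GCOS and MAS5 are the tools named per the submitters' processing notes, with versions not given in the sources used here. These signals are linear, and each array's 2% trimmed mean is 500, which removes differences in total RNA. Array medians ran from 121.9 to 204.4. Only 3 arrays a group limit the precision.

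Of 45101 probe sets, 34945 had 1 gene symbol, 932 several, 9160 none and 64 were controls. Signals became log2(signal + 48.6), where 48.6 is the 25th percentile of all signals, so differences of dim genes are understated. Probe sets bind unequally, so levels of different genes were not compared. limma 3.58.1 (R 4.3.3) fitted 7 group means to the 21 arrays with a mean-variance trend (two-sided, Benjamini-Hochberg over 13262 genes, called at an adjusted p under 0.05), after a test on simulated data. The members and lists were chosen with earlier results of these data known. Any Rab could be named. The plan was to give differences for called Rabs among the 8 largest in each direction, arrays for the 4 largest, and regulators by the 4 smallest adjusted p. Differences or arrays of further genes, such as Rab7, Rab10 and Rab21, are given beyond that plan. Same-numbered arrays deviated together weakly in the Flt3L subset comparison (r 0.233, 0.146 and 0.156). In the wild-type subset comparison r was 0.344, -0.196 and -0.169. Arrays of different numbers were not compared and the labels state no pairing, so whether the numbers pair is not settled. Alternatives were other offsets, filters, scalings, probe-set rules, fits and leaving out arrays.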

Additional observations from a re-analysis of the deposited data

Results flagged for a closer look

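Rab5a, the early endosomal Rab, was flagged because its differences between Flt3L and wild-type mice ran in opposite directions in the DC subsets. In 33D1 DCs every array of Flt3L mice (2756.2, 2336.1 and 2397.7) was above every array of wild-type mice (2007.4, 2227.2 and 2081.6), with a log2 difference of 0.24 ± 0.14. In DEC205 DCs every array of Flt3L mice (2655.8, 2846.4 and 2771.3) was below every array of wild-type mice (3077.1, 2914.3 and 3527.1), with -0.19 ± 0.14. Neither was called (limma adjusted p = 0.61 and 0.646). The difference between them was 0.43, with an unadjusted p of 0.0343 in the limma fit and an adjusted p of 0.985 over all genes, so it failed the correction. Of the 49 tested Rab genes, 3 had an unadjusted p under 0.05 in that contrast. Arrays of Flt3L and wild-type mice did not overlap for 10 of the 49 in 33D1 DCs and for 5 in DEC205 DCs. The share of all genes without overlap was not computed, so these counts and the separation of the Rab5a arrays show no effect on Rab genes.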

How the results depend on the processing

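Of 110 Rab calls in 5 contrasts, 74 were kept in every setting run, 36 were lost in at least 1 and 0 reversed. Leaving out 1 array gave 18 to 19 calls between the wild-type subsets, 17 to 22 between the Flt3L subsets, 15 to 21 for DCs minus B cells, 25 to 30 for DCs minus T cells, 13 to 20 for B minus T cells, 5 to 6 restricted genes, 0 to 1 for the Flt3L effect in DEC205 DCs and 0 to 1 for CD8 minus CD4 T cells. The Flt3L effect in DEC205 DCs had 1 call with the mean of all probe sets (Rab38, -0.98, adjusted p = 0.02) and 1 without the 2 arrays that hold transcripts of the other subset (Rab6b, a setting added after seeing the data). With the replicate number as a block, 21 Rab genes were called between the wild-type subsets, 20 between the Flt3L subsets, 19 for DCs minus B cells, 27 for DCs minus T cells and 16 for B minus T cells. Counts over all genes changed with these settings too. Between the wild-type subsets the block gave 1470 higher and 1530 lower, and leaving out 33D1 replicate 1 gave 1221 and 1378, against 1503 and 1565 in the main fit. A block within the Flt3L arrays alone gave 21 between the Flt3L subsets, adding Rab8b (-0.36, adjusted p = 0.0271). Signals near the bottom of the range limit Rab20, Rab6b in DEC205 DCs, Rab30 in T cells and Rab7b outside DEC205 DCs.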
